A study of Rattus norvegicus with 16 samples.

Results

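The genes described here copy DNA and supply its building blocks: 39 genes for origin licensing, helicase activation, the sliding clamp and its loader, the replicative polymerases, flap removal and ligation, deoxynucleotide synthesis, fork protection, single-strand binding and chromatin assembly, with Tcf19 beside them. The MCM2-7 helicase subunits and the cyclins are not among them. Members were found by the gene name that the array gives each probe. Of the 39, 38 had at least 1 probe (49 probes in all), all 38 were tested, and Gins1 had none. They were compared with the 22959 genes tested on the same arrays.

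The samples were 16 cultures of primary hippocampal neurons from Sprague-Dawley rat embryos of either sex, taken at embryonic day 18 to 19. PRR7, the protein under study, is a transmembrane adaptor found at synapses. In the knockdown group, lentiviruses made from pTRIP vectors carried an shRNA against a 19-base target in the PRR7 coding region. The nontargeting group received control lentiviruses whose shRNA matches no target, and the not transduced group received no virus. In the overexpression group, lentiviruses made from the FUGW vector, in which a ubiquitin promoter drives the insert, carried full-length PRR7; no group with an empty FUGW virus is part of the series. Each group held 4 samples, which the design calls biological replicas; whether they came from separate dissections is not given in the sources used here, so p-values measure the spread between these samples. The 8 arrays were shared by pairs of samples from a single group, replicates 1 and 2 or replicates 3 and 4, in different dyes. Knockdown and nontargeting arrays lay on 1 slide and overexpression and not transduced arrays on another, so in knockdown or nontargeting against not transduced, slide and treatment cannot be told apart. The share of probes well above background ran from 49.2% to 57.7% in the Cy3 samples (replicates 1 and 3). It ran from 60% to 69.6% in the Cy5 samples (replicates 2 and 4), so counts of samples well above background depend in part on the dye. No probe is named Prr7 and none holds the shRNA target, so neither the knockdown nor the overexpression of PRR7 could be read from these arrays.

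Before each S phase, the origin recognition complex with Cdc6 and Cdt1 loads the MCM helicase on DNA, and Cdc45 and GINS then switch it on. Polymerase alpha-primase starts each strand, polymerases epsilon and delta extend it behind the PCNA clamp, and ribonucleotide reductase, thymidylate synthase and their partners keep deoxynucleotides available. Many of these genes are classical targets of E2F transcription factors and are low in cells that have left the cell cycle, as neurons have; in bulk RNA, more cells of a type and more RNA per cell cannot be told apart.

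Most of the members that changed were higher in the knockdown samples, against either control. Values are log2 intensities after normalization, a difference of 1 is 2-fold, and a gene passed at a Benjamini-Hochberg adjusted p below 0.05 in limma over all 22959 genes. Against nontargeting, 21 of 38 members (55.3%) were higher, where 10.4% of all genes were, and 1 member, Rfc3, was lower, where 11% of all genes were. Against not transduced, 21 members (55.3%) were higher, where 4.85% of all genes were, and 0 were lower, where 5.22% of all genes were. The members' median difference was 0.55 against nontargeting and 0.58 against not transduced, beside -0.02 and 0.00 for all genes. By sign alone, 34 of 38 members lay above 0 in the first comparison and 36 in the second, where 46.8% and 50.8% of all genes did.

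Both comparisons use the same 4 knockdown samples. In all, 18 members passed as higher against both controls, where 1.93% of all genes did: Orc1, Cdt1, Cdc45, Gins2, Gins4, Pcna, Rfc2, Pola2, Pold1, Pole, Pole2, Tyms, Dut, Timeless, Rpa2, Chaf1a, Chaf1b and Tcf19. These 18 and Rpa1 had every knockdown value above every value of the other 12 samples, 19 members where 4.56% of all genes did so. Differences of at least 2-fold were seen for 8 members against nontargeting (2.51% of all genes) and for 11 against not transduced (0.806% of all genes). Pole2 and Cdc6 reached the filter of 4 samples well above background only with their knockdown samples, and Pole2 is among the 21, the 18 and the 19. Without any filter on dim probes, 22 members were higher against nontargeting and 21 against not transduced.

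The members' counts depended on the scaling of the arrays. With every sample scaled to the same median in place of Aquantile, 9 members were higher and 2 lower against nontargeting (Rfc3 at -0.94 and Prim1 at -0.74), and 11 higher and 0 lower against not transduced. By sign, 26 and 27 of 38 members then lay above 0, and among called members Rpa2 against not transduced changed sign. That scaling moved the median of all genes to -0.14 and -0.28, and the members' median stood 0.43 and 0.48 above it. Over all genes, 3117 passed against nontargeting and 3962 against not transduced under that scaling, in either direction. The share of higher genes among those called fell from 48.7% to 13.2% against nontargeting and from 48.1% to 4.34% against not transduced. With the values of the deposited series matrix that share was 78.3% and 82.1% of 4674 and 2945 genes called, and 21 and 23 of 35 members were higher.

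**Figure D1:**
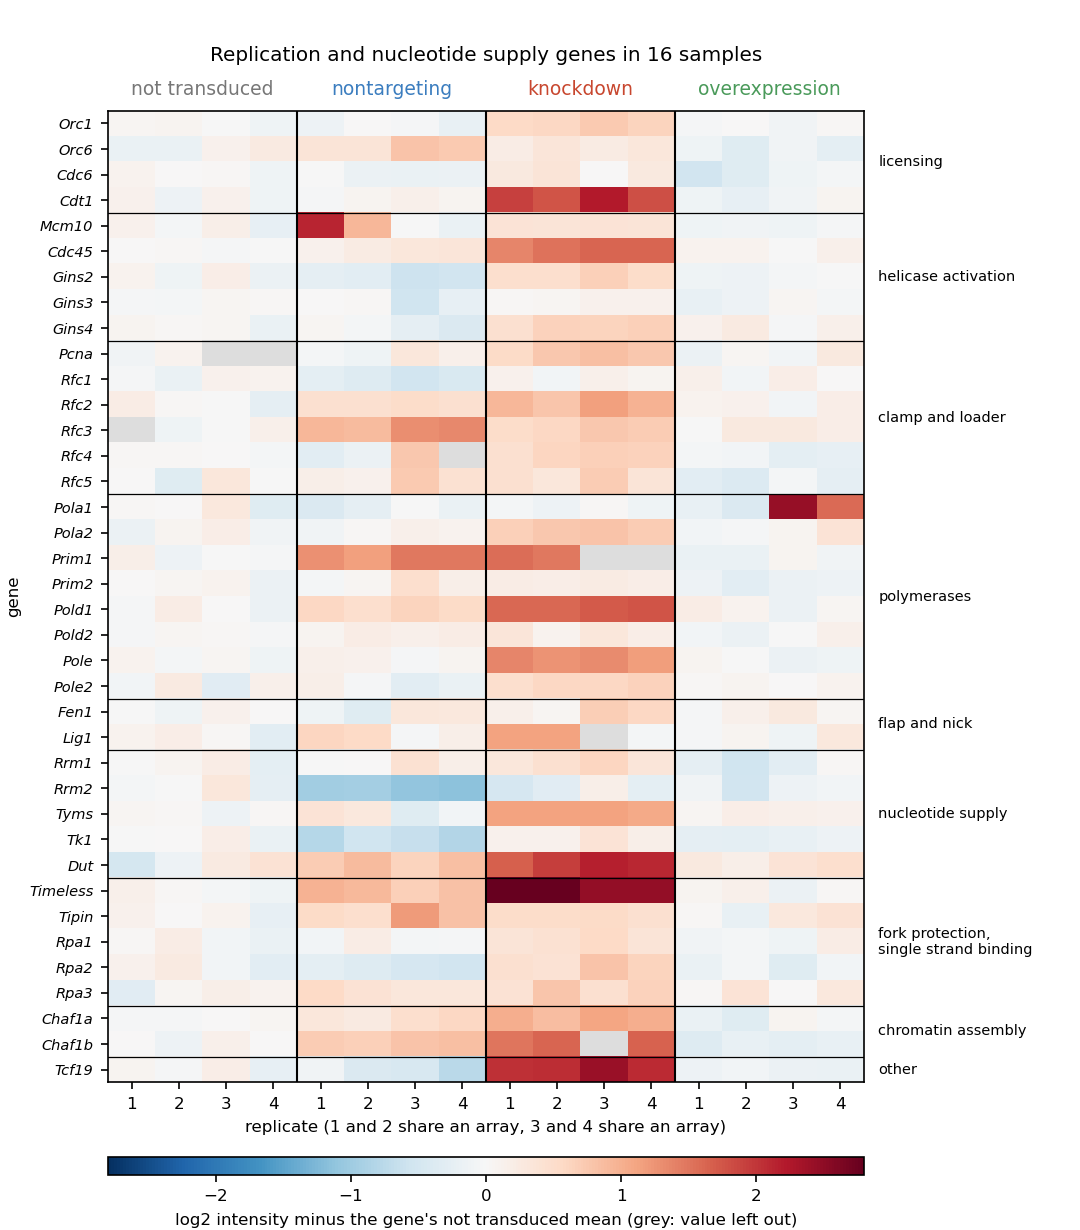
Log2 intensity of the 38 members in the 16 samples, each row given relative to that gene's mean in the not transduced samples, ordered by role (red higher, blue lower, grey a value left out). The knockdown columns are the reddest for the 18 members that passed against both controls, Prim1 and Rfc3 are red in nontargeting as well, and the dark cells for Mcm10 and Pola1 lie each on 1 array.

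The members' promoters were read for motifs of cell cycle factors because 18 of the genes were higher together. RefSeq promoters of the GRCr8 build, 250 bases before to 50 bases after the start of each gene, were at hand for 33 of the 38 members (not for Orc1, Cdc6, Gins4, Rrm2 and Rpa3). Both strands were searched for the E2F sites TTTCCCGC, TTTGGCGC and TTTCGCGC, the NF-Y box CCAAT and the CHR element TTTGAA, and a gene with several or overlapping matches was counted once. An E2F site was found for 11 of the 33 members (33.3%), where 333 of 9904 tested genes with a promoter (3.36%) and 1.72% of all 33469 promoters had one. The 11 were split between members higher against both controls (6 of 16) and other members (5 of 17). CCAAT was found for 18 of 33 members (54.5%), where 38.9% of tested genes and 37.5% of all promoters had it, and TTTGAA for 3 (9.09%), where 13.1% of tested genes and 18.3% of all promoters had it. The lines after this paragraph give, 5′ to 3′ on the gene's strand, the stretch from 200 bases before the start to the start or to the end of an E2F site just after it, with E2F sites and NF-Y boxes in capitals. They were chosen as the 5 single-promoter members with an E2F site and the largest rise against the control that gave the smaller one (Tcf19, Timeless, Cdt1, Pole and Tyms), Cdc45 with its 4 NF-Y boxes, and Rfc3, the member that was lower against nontargeting. A match is a description of the letters, not a shown binding site.

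Tcf19 (chr20:3223264-3223463, plus strand), Timeless (chr7:1239250-1239457, plus strand), Cdt1 (chr19:67529049-67529263, plus strand), Pole (chr12:52053657-52053862, minus strand), Tyms (chr9:120776084-120776283, minus strand), Cdc45 (chr11:95689978-95690177, plus strand) and Rfc3 (chr12:5836368-5836582, plus strand) read as follows on GRCr8.
Tcf19: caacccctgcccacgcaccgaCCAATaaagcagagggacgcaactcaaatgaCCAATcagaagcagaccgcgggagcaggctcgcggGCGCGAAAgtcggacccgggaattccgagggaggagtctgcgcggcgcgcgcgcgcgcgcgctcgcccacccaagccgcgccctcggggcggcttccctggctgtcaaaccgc
Timeless: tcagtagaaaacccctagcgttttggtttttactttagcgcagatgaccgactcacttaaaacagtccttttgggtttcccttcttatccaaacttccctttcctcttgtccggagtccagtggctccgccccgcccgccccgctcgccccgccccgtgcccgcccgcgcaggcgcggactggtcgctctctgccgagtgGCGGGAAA
Cdt1: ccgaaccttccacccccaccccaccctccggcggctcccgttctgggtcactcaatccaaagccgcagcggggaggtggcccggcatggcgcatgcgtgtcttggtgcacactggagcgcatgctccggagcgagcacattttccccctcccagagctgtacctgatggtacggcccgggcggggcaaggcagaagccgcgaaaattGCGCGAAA
Pole: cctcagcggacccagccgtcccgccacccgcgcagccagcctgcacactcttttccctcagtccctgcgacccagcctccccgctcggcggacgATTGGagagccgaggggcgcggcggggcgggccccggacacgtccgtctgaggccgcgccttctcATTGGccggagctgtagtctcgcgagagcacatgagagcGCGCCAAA
Tyms: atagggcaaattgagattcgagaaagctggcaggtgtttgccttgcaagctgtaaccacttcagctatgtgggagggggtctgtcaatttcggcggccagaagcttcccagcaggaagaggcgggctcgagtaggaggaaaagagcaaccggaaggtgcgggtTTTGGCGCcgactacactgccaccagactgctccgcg
Cdc45: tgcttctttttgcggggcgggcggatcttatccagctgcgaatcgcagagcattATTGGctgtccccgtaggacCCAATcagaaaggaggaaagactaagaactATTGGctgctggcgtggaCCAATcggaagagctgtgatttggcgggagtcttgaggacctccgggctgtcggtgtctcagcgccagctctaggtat
Rfc3: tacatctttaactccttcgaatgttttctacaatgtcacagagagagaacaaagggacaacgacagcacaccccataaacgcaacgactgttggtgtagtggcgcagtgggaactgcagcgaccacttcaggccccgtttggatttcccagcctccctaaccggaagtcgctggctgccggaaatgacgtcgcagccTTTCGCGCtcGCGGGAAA

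In these lines Timeless, Pole and Cdt1 hold an E2F site at the start or within 15 bases after it, Tyms at position -37 and Tcf19 at position -113 from it. Rfc3 holds 2 such sites within 15 bases of its start, and Cdt1 has a second at position 33 beyond its printed line. Cdc45 holds none of the searched E2F motifs beside its 4 NF-Y boxes, and variants of these motifs were not searched.

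Licensing factors came apart into Cdt1 and Orc1, which were higher against both controls, and Orc6 and Cdc6, which did not pass against either. Cdt1, which brings the MCM helicase to origins and is removed once S phase begins, read 9.78, 9.62, 10.08 and 9.67 in knockdown, 7.84, 7.95, 8.0 and 7.94 in nontargeting, 7.98, 7.73, 7.99 and 7.75 in not transduced and 7.75, 7.64, 7.77 and 7.95 in overexpression (probe at chr19:52852665-52852724 of rn4). The knockdown samples stood alone and the other 12 samples lay together. The difference was 1.86 (SE 0.15) against nontargeting (adjusted p = 1.09e-06) and 1.93 (SE 0.15) against not transduced (adjusted p = 2.67e-06), or 3.62-fold and 3.8-fold.

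Orc1, the largest subunit of the origin recognition complex, read 7.97, 7.98, 8.13 and 8.03 in knockdown, 7.25, 7.41, 7.36 and 7.19 in nontargeting, 7.46, 7.48, 7.39 and 7.28 in not transduced and 7.36, 7.41, 7.30 and 7.43 in overexpression. It was well above background in all 4 knockdown samples and in 2 of 4 samples of each other group, the Cy5 ones (replicates 2 and 4). Again no control sample reached the knockdown values. Its difference was 0.72 (SE 0.11) against nontargeting (adjusted p = 0.000304) and 0.63 (SE 0.11) against not transduced (adjusted p = 0.00266). Cdc6, which acts with Cdt1, was close to background (well above it in 6 of 16 samples), and its difference of 0.36 (SE 0.14) against nontargeting did not pass (adjusted p = 0.0945), though it did without knockdown replicate 3 (0.42, adjusted p = 0.0448). Orc6, another subunit of the origin complex, differed by -0.28 against nontargeting (adjusted p = 0.213), with a 95% confidence interval of -0.61 to 0.04.

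Of the 5 measured helicase activators, Cdc45, Gins2 and Gins4 were higher against both controls, while Gins3 and Mcm10 did not pass. Cdc45, which joins GINS and MCM2-7 in the active helicase, read 10.05, 10.22, 10.32 and 10.33 in knockdown, 8.80, 8.91, 9.0 and 9.03 in nontargeting, 8.71, 8.72, 8.65 and 8.68 in not transduced and 8.79, 8.78, 8.68 and 8.84 in overexpression. The 4 knockdown values were the highest of the 16 by a wide margin beside the spread within any group. Its difference was 1.29 (SE 0.10) against nontargeting (adjusted p = 5.31e-07) and 1.54 (SE 0.10) against not transduced (adjusted p = 6.71e-07).

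Gins2, a subunit of the 4-part GINS complex, read 8.01, 8.01, 8.22 and 8.05 in knockdown, 7.30, 7.25, 6.97 and 7.01 in nontargeting, 7.64, 7.43, 7.73 and 7.38 in not transduced and 7.42, 7.40, 7.48 and 7.53 in overexpression. It was well above background in 4 of 4 knockdown samples and 1 of 4 nontargeting samples, and the knockdown values lay above all others. The difference was 0.94 (SE 0.13) against nontargeting (adjusted p = 0.000132) and 0.53 (SE 0.13) against not transduced (adjusted p = 0.0194). Gins4, another GINS subunit, read 10.01, 10.21, 10.19 and 10.23 in knockdown, 9.63, 9.51, 9.31 and 9.16 in nontargeting, 9.65, 9.60, 9.63 and 9.38 in not transduced and 9.68, 9.81, 9.53 and 9.70 in overexpression. The groups did not overlap with knockdown, although the gap to the overexpression samples was small. Its difference was 0.76 (SE 0.15) (adjusted p = 0.00189) against nontargeting and 0.59 (SE 0.15) (adjusted p = 0.0193) against not transduced. Scaling to equal medians ended both Gins4 calls (0.42 and 0.06) and that of Gins2 against not transduced. Gins3 differed by 0.27 against nontargeting and 0.08 against not transduced, neither past the test (adjusted p = 0.216 and 0.771).

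Mcm10, which helps to activate the helicase, showed a split within 1 group: it read 7.77, 7.75, 7.77 and 7.75 in knockdown, 9.52, 8.32, 7.39 and 7.21 in nontargeting, 7.52, 7.34, 7.56 and 7.16 in not transduced and 7.28, 7.30, 7.27 and 7.36 in overexpression. The 2 high nontargeting values came from replicates 1 and 2, which share an array. Its difference against nontargeting was -0.35 (SE 0.41) (adjusted p = 0.611), and its other probe was well above background in no sample. Without the nontargeting array of replicates 1 and 2 it passed as higher (0.46, adjusted p = 0.0313), and without that of replicates 3 and 4 as lower (-1.16, adjusted p = 0.0222).

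**Figure D2:**
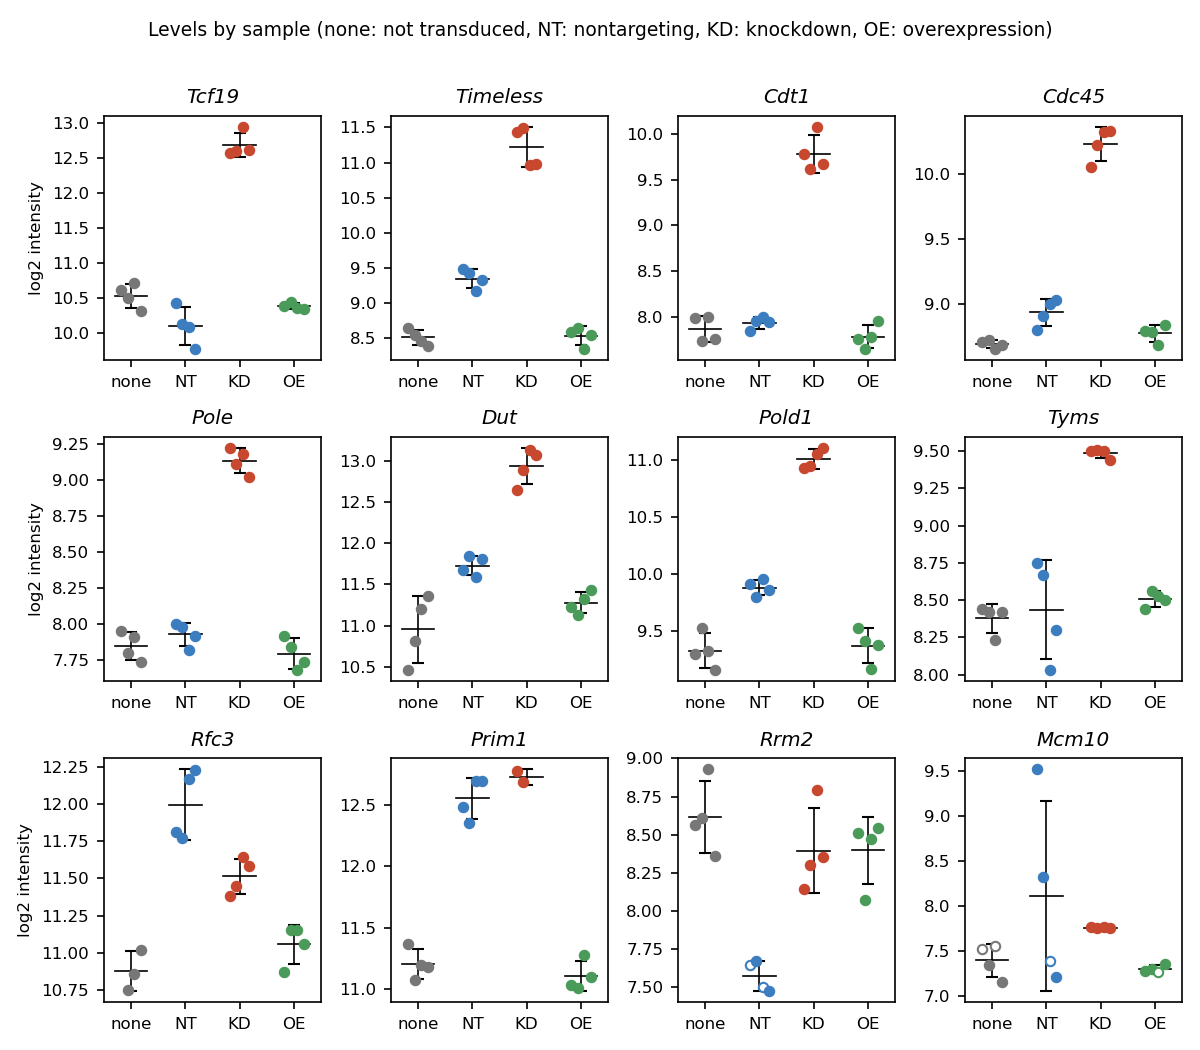
Log2 intensity of 12 members in each sample (points, open where not well above background) with the group mean and SD (bars), n = 4 per group apart from Prim1 in knockdown (n = 2) and Rfc3 in not transduced (n = 3). The top 8 genes have the 4 knockdown points above all others; Rfc3 and Prim1 are high in both nontargeting and knockdown, Rrm2 is low in nontargeting, and Mcm10 is high in 2 nontargeting samples of a shared array.

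The clamp and its loader moved in different directions. Pcna, the sliding clamp that holds polymerases on DNA, read 12.27, 12.48, 12.57 and 12.50 in knockdown, 11.69, 11.62, 12.06 and 11.88 in nontargeting, 11.63 and 11.84 (replicates 3 and 4 had no usable spot) in not transduced and 11.57, 11.79, 11.66 and 12.01 in overexpression. The knockdown samples were the highest, but only 2 not transduced values remained. Its difference was 0.64 (SE 0.17) against nontargeting (adjusted p = 0.0155) and 0.72 (SE 0.21) against not transduced (adjusted p = 0.0422). The second Pcna probe gave 0.77 and 0.65 and passed in both comparisons in the fit over all probes. The call against not transduced was lost (adjusted p = 0.0514 to 0.108) when any 1 of 10 samples was left out: knockdown 2, 3 or 4, nontargeting 4, not transduced 1, 2, 3 or 4, or overexpression 1 or 2. Not transduced 3 and 4 held no Pcna value, so leaving them out changed only estimates and adjustments shared over all genes. Both calls of the tested probe ended under equal medians, at 0.18 and 0.08.

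Among the 5 loader subunits, Rfc2 was higher against both controls, Rfc1 against nontargeting only, and Rfc4 and Rfc5 passed against neither. Rfc2 read 11.54, 11.38, 11.76 and 11.59 in knockdown, 11.05, 11.06, 11.13 and 11.06 in nontargeting, 10.82, 10.65, 10.61 and 10.37 in not transduced and 10.70, 10.74, 10.54 and 10.80 in overexpression. The order was knockdown, then nontargeting, then the other groups, and neither knockdown nor nontargeting overlapped with any other group. Its difference was 0.49 (SE 0.14) against nontargeting (adjusted p = 0.0211) and 0.96 (SE 0.14) against not transduced (adjusted p = 0.000677). Under equal medians neither passed (0.08 and 0.30).

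Rfc3 was the 1 member lower in knockdown than in nontargeting, and it was higher in both than in cells without virus. It read 11.38, 11.45, 11.64 and 11.58 in knockdown, 11.81, 11.77, 12.17 and 12.23 in nontargeting, 10.75, 10.86 and 11.02 (replicate 1 had no usable spot) in not transduced and 10.87, 11.15, 11.15 and 11.06 in overexpression (probe at chr12:3224623-3224682 of rn4). Nontargeting was the highest group, knockdown lay between, and these groups did not overlap. The difference was -0.48 (SE 0.15) against nontargeting (adjusted p = 0.032) and 0.67 (SE 0.16) against not transduced (adjusted p = 0.014). The fall was lost in 13 of 39 alternative runs and the rise in 7 of 39. Leaving out knockdown replicate 1, 2 or 4 or nontargeting replicate 4 ended the fall (adjusted p = 0.053 to 0.0651). Leaving out not transduced replicate 2 ended the rise (adjusted p = 0.0772), as did equal medians (0.02).

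Rfc1, the large subunit, differed by 0.46 (SE 0.11) against nontargeting (adjusted p = 0.00924) and by 0.06 against not transduced (adjusted p = 0.785), and its second probe did the same (0.31 and -0.15). The Rfc1 call ended under equal medians (0.04). Rfc4 differed by 0.40 and 0.60 (adjusted p = 0.197 and 0.0818), and Rfc5 by 0.10 and 0.47 (adjusted p = 0.705 and 0.0688), in the same order. Rfc4 read 9.23, 9.37 and 10.28 in nontargeting, where replicate 4 had no usable spot, so its 2 arrays stood apart. Rfc4 passed in both comparisons without nontargeting replicate 3 (0.83, adjusted p = 0.000338, and 0.60, adjusted p = 0.00254). That leaves this gene only the nontargeting array of replicates 1 and 2. Rfc5 passed against not transduced without nontargeting replicate 1 or 3 (adjusted p = 0.0394 and 0.0495). With the replicate number as a block, Rfc5 passed against not transduced (0.47, adjusted p = 0.0123).

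Each of the 3 replicative polymerases had at least 1 subunit that was higher against both controls. Pole, the catalytic subunit of polymerase epsilon on the leading strand, read 9.22, 9.11, 9.18 and 9.02 in knockdown, 8.0, 7.98, 7.82 and 7.92 in nontargeting, 7.95, 7.80, 7.91 and 7.74 in not transduced and 7.92, 7.84, 7.68 and 7.74 in overexpression. Again the knockdown samples stood alone, and the other 3 groups overlapped. Its difference was 1.20 (SE 0.11) against nontargeting (adjusted p = 2.48e-06) and 1.28 (SE 0.11) against not transduced (adjusted p = 5.27e-06). Pold1, the catalytic subunit of polymerase delta on the lagging strand, read 10.93, 10.94, 11.05 and 11.10 in knockdown, 9.91, 9.80, 9.96 and 9.86 in nontargeting, 9.30, 9.53, 9.33 and 9.16 in not transduced and 9.53, 9.42, 9.17 and 9.38 in overexpression (probe at chr1:95010792-95011164 of rn4). Nontargeting lay between knockdown and the other groups, without overlap. Its difference was 1.12 (SE 0.13) against nontargeting (adjusted p = 3.08e-05) and 1.67 (SE 0.13) against not transduced (adjusted p = 2.91e-06). The Pold1 call against nontargeting was lost under equal medians (0.75).

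Pole2, the second subunit of polymerase epsilon, was dim: it read 7.53, 7.64, 7.65 and 7.70 in knockdown, 7.22, 7.03, 6.76 and 6.87 in nontargeting, 6.98, 7.32, 6.75 and 7.21 in not transduced and 7.09, 7.15, 7.08 and 7.16 in overexpression. It was well above background in all 4 knockdown samples, in 1 of 4 not transduced and overexpression samples each, and in 0 of 4 nontargeting samples. Against nontargeting the fitted difference was 0.66 (adjusted p = 0.00912). It was 1.51-fold with the nontargeting side set to the lowest signal well above background on its arrays, or the probe's own where higher. That value is not a lower bound, since brighter signals, such as 7.64 for Rrm2 in nontargeting replicate 1, were not well above background either. Against not transduced it was 0.57 (SE 0.16) (adjusted p = 0.0387). That call was lost (adjusted p = 0.0515 to 0.0729) when any 1 of 10 samples was left out: any knockdown sample, nontargeting 4, not transduced 1 or 3, or overexpression 1, 3 or 4. The call against nontargeting was lost under equal medians, and the probe entered the test only through the group where it was high.

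Pola2, the regulatory subunit of polymerase alpha, read 8.13, 8.21, 8.26 and 8.17 in knockdown, 7.36, 7.50, 7.60 and 7.56 in nontargeting, 7.29, 7.53, 7.64 and 7.37 in not transduced and 7.38, 7.42, 7.53 and 7.84 in overexpression. The knockdown values were above all others. Its difference was 0.69 (SE 0.16) against nontargeting (adjusted p = 0.00503) and 0.74 (SE 0.16) against not transduced (adjusted p = 0.00738), and neither passed under equal medians. Prim1, the catalytic primase subunit, was high in both groups that received an shRNA virus: it read 12.77 and 12.68 (replicates 3 and 4 had no usable spot) in knockdown, 12.48, 12.35, 12.69 and 12.69 in nontargeting, 11.37, 11.07, 11.20 and 11.18 in not transduced and 11.03, 11.01, 11.28 and 11.10 in overexpression. Knockdown and nontargeting overlapped, and both lay above the other groups. Prim1 differed by 0.17 (SE 0.15) against nontargeting (adjusted p = 0.472) and by 1.52 (SE 0.15) against not transduced (adjusted p = 5.23e-05), and its second probe gave 0.17 and 1.55. Under equal medians the difference against not transduced was 0.42 and did not pass.

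Pola1, Prim2 and Pold2 did not pass in either comparison. Pola1, the catalytic subunit of polymerase alpha, differed by 0.14 against nontargeting with a 95% interval of -0.89 to 1.17. In 2 overexpression samples of a shared array it read 10.15 and 9.31, while the remaining samples lay between 7.30 and 8.02. Prim2, the large primase subunit, differed by 0.04 (interval -0.25 to 0.33), and Pold2, the second subunit of polymerase delta, by 0.07 (interval -0.18 to 0.33), both against nontargeting.

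Flap removal and ligation did not pass. Fen1, which cuts the flaps of Okazaki fragments, differed by 0.34 (SE 0.18) against nontargeting and 0.37 (SE 0.18) against not transduced (adjusted p = 0.208 and 0.212). Lig1, which seals the nicks, differed by 0.28 (SE 0.31) and 0.61 (SE 0.31) (adjusted p = 0.58 and 0.24). Its knockdown values were 12.64, 12.64 and 11.44, with replicate 3 missing, so the samples of 1 array stood above the remaining one. Without knockdown replicate 4 Lig1 passed against nontargeting (0.82, adjusted p = 0.0354) and against not transduced (1.14, adjusted p = 0.0136).

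Of the nucleotide supply genes, Dut and Tyms were higher against both controls, and Tk1 and Rrm2 against nontargeting only. Dut, which destroys dUTP and so keeps uracil out of DNA, read 12.64, 12.89, 13.13 and 13.07 in knockdown, 11.67, 11.85, 11.59 and 11.81 in nontargeting, 10.46, 10.81, 11.20 and 11.36 in not transduced and 11.23, 11.13, 11.33 and 11.43 in overexpression (probe at chr3:112562263-112562321 of rn4). Its lowest knockdown value was above the highest of any other sample, and the not transduced samples were widely spread. The difference was 1.20 (SE 0.19) against nontargeting (adjusted p = 0.000299) and 1.98 (SE 0.19) against not transduced (adjusted p = 1.41e-05), and the second probe, 0.83 and 1.31, passed too. The Dut call against nontargeting was lost under equal medians (0.73). Tyms, which makes thymidylate, read 9.50, 9.51, 9.50 and 9.44 in knockdown, 8.75, 8.67, 8.03 and 8.30 in nontargeting, 8.44, 8.42, 8.23 and 8.42 in not transduced and 8.44, 8.56, 8.53 and 8.50 in overexpression. The knockdown samples were close together while nontargeting varied by array. Its difference was 1.05 (SE 0.15) (adjusted p = 0.000157) against nontargeting and 1.11 (SE 0.15) (adjusted p = 0.000366) against not transduced.

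Rrm2, the S phase subunit of ribonucleotide reductase, read 8.14, 8.30, 8.79 and 8.35 in knockdown, 7.64, 7.67, 7.50 and 7.47 in nontargeting, 8.56, 8.61, 8.93 and 8.36 in not transduced and 8.51, 8.07, 8.47 and 8.54 in overexpression. The nontargeting samples were the low ones, and knockdown overlapped with not transduced and overexpression. The difference was 0.82 (SE 0.22) against nontargeting (adjusted p = 0.0133) and -0.22 (SE 0.22) against not transduced (adjusted p = 0.574). The second Rrm2 probe did not pass in either (0.15 and -0.04), and the tested probe's call was lost under equal medians. Tk1, the S phase thymidine kinase, was likewise lowest in nontargeting, with 0.90 (SE 0.15) against nontargeting (adjusted p = 0.000568) and 0.19 (SE 0.15) against not transduced (adjusted p = 0.47). It was well above background in 1 of 4 nontargeting samples, and the array places its probe on chromosome 3 of rn4 where RefSeq places the gene on chromosome 10. Rrm1, the other subunit of the reductase, differed by 0.28 (SE 0.21) and 0.43 (SE 0.21), and none of its 3 probes passed.

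At the fork, Timeless rose more than any other member against not transduced. Timeless, which with Tipin steadies stalled forks and links them to the checkpoint, read 11.44, 11.49, 10.96 and 10.98 in knockdown, 9.48, 9.42, 9.17 and 9.32 in nontargeting, 8.65, 8.54, 8.46 and 8.39 in not transduced and 8.59, 8.65, 8.34 and 8.55 in overexpression (probe at chr7:1540307-1540366 of rn4). The order was knockdown, nontargeting, then the other groups, with no overlap between these steps. The difference was 1.87 (SE 0.15) against nontargeting (adjusted p = 7.99e-07) and 2.71 (SE 0.15) against not transduced (adjusted p = 1.38e-07), or 3.66-fold and 6.54-fold. Its partner Tipin differed by -0.25 (SE 0.18) against nontargeting (adjusted p = 0.368) and 0.51 (SE 0.18) against not transduced (adjusted p = 0.0898), neither past the test, and passed in the second without nontargeting replicate 3 (adjusted p = 0.0469).

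Of the trimer that coats single-stranded DNA, Rpa2 was higher against both controls. It read 10.63, 10.59, 10.98 and 10.81 in knockdown, 9.91, 9.82, 9.72 and 9.64 in nontargeting, 10.31, 10.43, 10.10 and 9.90 in not transduced and 10.01, 10.12, 9.85 and 10.11 in overexpression. Knockdown lay above the other groups, by little over the highest not transduced sample. Its difference was 0.98 (SE 0.16) against nontargeting (adjusted p = 0.00042) and 0.57 (SE 0.16) against not transduced (adjusted p = 0.0333). The second call was lost (adjusted p = 0.0517 to 0.0604) without knockdown 3, nontargeting 2, or not transduced 1, 3 or 4, and under equal medians neither call held (0.61 and -0.03). Rpa3 passed against not transduced alone (0.56 (SE 0.17), adjusted p = 0.049), and lost the call (adjusted p = 0.0502 to 0.0904) when any 1 of 12 samples was left out, that is any sample but knockdown 1, nontargeting 1 or 3, or not transduced 3, or when arrays were scaled to equal medians (0.08). Rpa1, whose knockdown values were above all others, differed by 0.42 (SE 0.15) and 0.43 (SE 0.15) without passing (adjusted p = 0.0621 and 0.0876). With the replicate number as a block it passed against nontargeting (adjusted p = 0.0466), as it did without knockdown 4 (0.0348) or nontargeting 2 (0.0415).

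Both measured subunits of chromatin assembly factor 1, which places histones behind the fork, were higher against both controls. Chaf1a read 12.34, 12.19, 12.43 and 12.34 in knockdown, 11.64, 11.57, 11.79 and 11.91 in nontargeting, 11.30, 11.29, 11.33 and 11.38 in not transduced and 11.15, 10.98, 11.41 and 11.27 in overexpression. Chaf1b read 11.65, 11.79 and 11.81 (replicate 3 had no usable spot) in knockdown, 10.87, 10.82, 10.96 and 11.01 in nontargeting, 10.16, 10.01, 10.30 and 10.17 in not transduced and 9.80, 9.96, 9.88 and 9.96 in overexpression. For both genes the order was knockdown, nontargeting, not transduced, with no overlap between these 3 groups. Chaf1a differed by 0.60 (SE 0.12) against nontargeting (adjusted p = 0.00254) and 1.00 (SE 0.12) against not transduced (adjusted p = 0.000146). The second Chaf1a probe gave 0.60 and 0.75 and passed in both, but did not pass in nontargeting against not transduced (0.15). Chaf1b differed by 0.84 (SE 0.12) (adjusted p = 0.000233) and 1.60 (SE 0.12) (adjusted p = 3.44e-06). Equal medians ended both Chaf1a calls (0.14 and 0.30) and that of Chaf1b against nontargeting (0.40).

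Tcf19, a nuclear protein known for its expression at the entry into S phase, had the largest difference against nontargeting of all members. It read 12.57, 12.60, 12.94 and 12.62 in knockdown, 10.43, 10.13, 10.09 and 9.77 in nontargeting, 10.61, 10.50, 10.71 and 10.31 in not transduced and 10.39, 10.45, 10.36 and 10.35 in overexpression. The knockdown values were over 1 log2 unit above every other sample, and nontargeting overlapped with not transduced. The difference was 2.58 (SE 0.16) against nontargeting (adjusted p = 7.42e-08) and 2.15 (SE 0.16) against not transduced (adjusted p = 1.67e-06), or 5.96-fold and 4.44-fold.

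**Figure D3:**
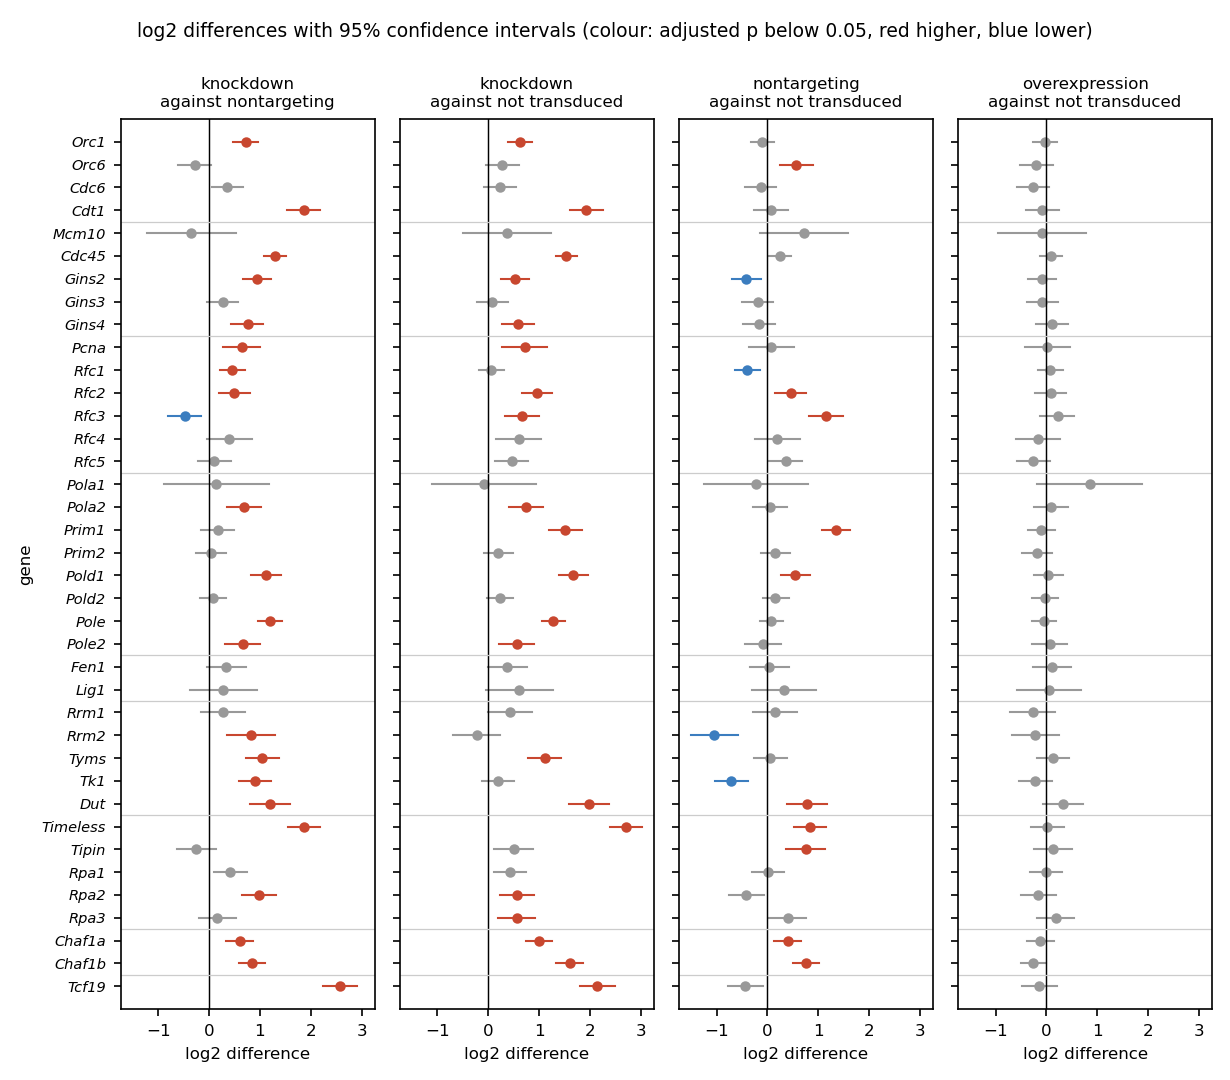
Log2 difference of each member with its 95% confidence interval in 4 comparisons, ordered by role; red marks higher and blue lower at an adjusted p below 0.05, grey neither. Red dominates both knockdown comparisons, nontargeting against not transduced holds 10 red and 4 blue members, and the overexpression comparison holds none.

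Some members also differed between the control groups, which lie on different slides. In nontargeting against not transduced, 10 members (26.3%) were higher, where 11.5% of all genes were. The 4 members that were lower (10.5%) were near the share of all genes, 11%. The members' median was 0.11, beside 0.03 for all genes, and under equal medians 3 of the 14 calls were kept (Prim1, Timeless and Rrm2). The higher ones were Prim1 (1.35 (SE 0.12), adjusted p = 1.11e-05), Rfc3 (1.15 (SE 0.16), adjusted p = 0.000146), Timeless, Dut, Chaf1b, Tipin, Orc6, Pold1, Rfc2 and Chaf1a, the last 8 by 0.40 to 0.84. The lower ones were Rrm2 (-1.05 (SE 0.22), adjusted p = 0.0031), Tk1 (-0.71), Gins2 (-0.41) and Rfc1 (-0.40). In the limma fit over all probes, the second probes of Rrm2 (-0.18, adjusted p = 0.352), Dut (0.48, 0.126) and Chaf1a (0.15, 0.389) did not pass. Those of Prim1 (1.39) and Rfc1 (-0.46) did. For Rrm2 and Tk1 knockdown differed from nontargeting by 0.82 and 0.90, comparisons that share the nontargeting samples with this one. Chaf1a lost its call without nontargeting 4 or not transduced 3 (adjusted p = 0.0553 and 0.0592), Gins2 without nontargeting 4 or not transduced 1 or 3 (0.0533 to 0.0707), and Rfc2 without nontargeting 2 or 4 or not transduced 2 or 4 (0.0514 to 0.0559). In the other direction, Tcf19 passed as lower without nontargeting 1 or not transduced 4 (adjusted p = 0.0403 and 0.0476), Rpa2 without not transduced 4 (0.0402), and Rfc5 as higher without nontargeting 1 (0.0371).

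In the overexpression samples, where the PRR7 level itself was not measured, 0 members passed in limma in either direction, where 0.00436% of all genes (1 gene) were higher and 0% were lower. At an unadjusted p below 0.05, 1 member (Chaf1b, -0.26 (SE 0.12)) and 887 genes passed. The members' median was -0.03 beside -0.01 for all genes, and 17 members lay above 0 and 21 below. Apart from Pola1 (0.85 (SE 0.48)), the differences ran from -0.27 for Rrm1 to 0.33 for Dut. Without overexpression replicates 1 and 2, which leaves the array with the high values, Pola1 passed (2.01, adjusted p = 0.013), and its second probe did not pass in the full fit. For Cdt1 the interval was -0.41 to 0.24 and for Timeless -0.30 to 0.34, so changes of the size seen in knockdown lie outside them.

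The knockdown difference within 1 slide and the overexpression difference within the other were also set against each other, as a difference of differences. In this test 15 members were higher, where 5.54% of all genes were, and 0 were lower, where 4.3% of all genes were. They were Cdt1, Orc1, Cdc45, Gins2, Pold1, Pole, Tyms, Dut, Rrm2, Tk1, Timeless, Rpa2, Chaf1a, Chaf1b and Tcf19, from 0.72 for Chaf1a to 2.72 for Tcf19. Under equal medians 2 of the 15 calls were kept, Tcf19 and Timeless, and calls over all genes fell from 2259 to 163. The clamp, its loader, and the flap and nick enzymes had no member among them. The calls of Dut and Rrm2 were lost without 1 of 13 and 1 of 9 samples in turn (adjusted p = 0.0565 to 0.0817 and 0.0511 to 0.0766). For Dut these were all samples but knockdown 1, not transduced 1 and overexpression 1, and for Rrm2 they were nontargeting 1, 2 or 4 and replicates 2 or 3 of the other groups. Conversely, leaving out 1 sample let Gins4 pass (not transduced 4, nontargeting 1 or knockdown 1, 0.70 to 0.71) and Cdc6 (nontargeting 1 or knockdown 3, 0.66 and 0.68). The same held for Pole2 (nontargeting 1, 0.70), Pola2 (overexpression 4, 0.68) and Rfc3 as lower (nontargeting 2 or overexpression 1, -0.76). Rfc4 passed without nontargeting 3 (0.99), which leaves it only the nontargeting array of replicates 1 and 2.

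**Figure D4:**
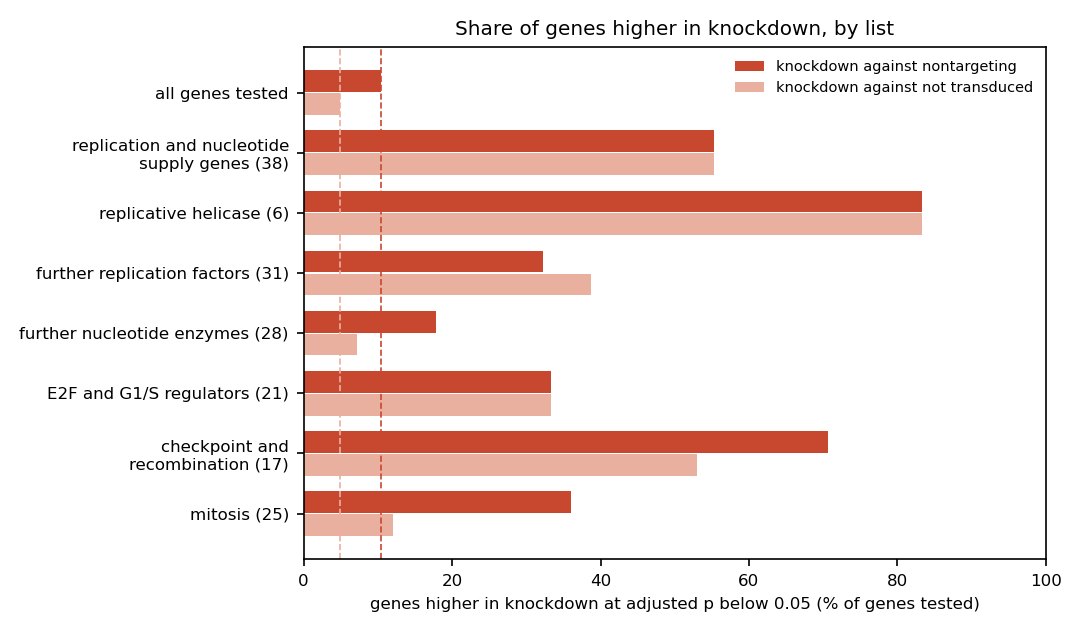
Percentage of genes higher in knockdown at an adjusted p below 0.05, against nontargeting (dark bars) and against not transduced (light bars), for all genes tested, the 38 members and 6 related lists, with the number of genes tested in brackets; dashed lines mark the shares of all genes. The members stand at 55.3% in both comparisons, beside 10.4% and 4.85% of all genes.

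Genes that work beside the members were counted in the same fit. Of the 6 MCM2-7 subunits, 5 were higher and 0 lower in each knockdown comparison (medians 0.88 and 0.99), led by Mcm3 and Mcm6. Of 31 further replication factors, 10 were higher against nontargeting and 12 against not transduced, with 0 lower (both medians 0.27). Dscc1, Gmnn and Atad5 were higher in both, while Rnaseh2a was higher against nontargeting alone (2.06, against 0.30 with adjusted p = 0.273 for not transduced) and lower in nontargeting than in not transduced (-1.76, adjusted p = 4.99e-06). Of 17 checkpoint and recombination genes, 12 and 9 were higher with 0 lower (medians 0.72 and 0.53), among them Chek1, Exo1 and Bard1. E2F and G1/S regulators were mixed: 7 of 21 were higher in each comparison, Ccne1 and E2f1 in both and E2f8 against nontargeting alone, and 3 and 2 were lower, among them Ccnd3 against nontargeting. Of 28 further nucleotide enzymes, 5 were higher and 5 lower against nontargeting and 2 and 2 against not transduced, with Dctpp1 higher in both. Of 25 mitosis genes, 9 were higher against nontargeting and 3 against not transduced, with 0 lower (medians 0.34 and -0.01), while 10 were lower in nontargeting than in not transduced, where 0 were higher. The medians of all genes in the knockdown comparisons were -0.02 and 0.00. Of all genes, 10.4% were higher and 11% lower against nontargeting, and 4.85% and 5.22% against not transduced. The further nucleotide enzymes lay near the latter shares, with 7.14% higher against not transduced. In nontargeting against not transduced, 11.5% of all genes were higher and 11% lower.

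Markers of the cells that such cultures can hold were read beside these results. Of all genes, 10.4% were higher and 11% lower against nontargeting, and 4.85% and 5.22% against not transduced, so small counts in these short lists lie near those shares. The 9 measured neuron markers, among them Map2, Tubb3 and Snap25, gave 1 higher (11.1%) and 1 lower against nontargeting and 0 and 0 against not transduced. Their mean level was 13.31 to 13.42 in knockdown, 12.69 to 13.49 in nontargeting and 13.28 to 13.84 in not transduced. These levels, and those below, average the markers with a usable spot in each sample, so a missing bright marker lowers them. Gene by gene, the neuron markers' median difference was -0.1 against nontargeting and -0.32 against not transduced. It was -0.24 in nontargeting against not transduced. Of 10 neural progenitor markers, 2 were higher against nontargeting (Nes and Prom1, named after their values were seen) and 2 lower against not transduced, with mean levels of 10.20 to 10.31 in knockdown, 8.95 to 10.12 in nontargeting, 10.00 to 10.64 in not transduced and 10.41 to 10.64 in overexpression. The progenitor markers' median difference was 0.16 against nontargeting and -0.12 against not transduced. It was -0.35 in nontargeting against not transduced. Of 10 astrocyte markers, 3 were higher and 1 lower against nontargeting, and 1 higher against not transduced, with mean levels of 11.61 to 11.65 in knockdown, 11.31 to 11.60 in nontargeting and 11.30 to 11.93 in not transduced. Of 5 oligodendrocyte precursor markers 2 were higher against nontargeting, and of 6 oligodendrocyte markers 1 was higher against nontargeting and 1 lower against not transduced. Of 7 microglia markers 0 passed in either, and Aif1, Itgam and Cx3cr1 were well above background in no sample. Of 5 endothelial and 7 fibroblast markers 1 each was higher against nontargeting and 0 passed against not transduced, while Pecam1, Tek and Lum were well above background in no sample. The part of these cell types in the members' differences was not tested.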

How the data were processed

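RNA of 16 rat hippocampal cultures was hybridised to 8 Agilent 2-colour arrays, and each sample was taken from its own dye. The deposited files hold spot intensity values from Agilent Feature Extraction 10.7.3.1, per the file headers. The deposited series matrix holds log2 values, which equal log2 of median signal minus median background, centred on each sample's median (slope 1), and was used as an alternative. Arrays limit the precision by their number. Groups came from the sample titles; a description label naming another tissue contradicts them and was not used.

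Mean signals were corrected with normexp (offset 50) against median background, normalized by loess within and Aquantile between arrays, and spots of a probe averaged, without outlier spots. Kept were 27294 of 41012 probes, well above background in at least 4 samples with at least 12 values and 2 per group; per gene the probe with the highest mean was used. limma 3.58.1 (R 4.3.3, statmod 1.5.0) fitted group and dye over all samples with the array as a random block (correlation 0.569), followed by eBayes and Benjamini-Hochberg adjustment over 22959 genes. The fit was also run on simulated data with noise shared within arrays. These data held no dye, slide or scaling effects, so that run does not bear on them.

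Members, lists and motifs were chosen with earlier results of these data known. Every member is named. Sample values are given for members past the threshold against both controls or lower in knockdown, and for the 3 largest called changes of the control comparisons; genes of other lists are named by the smallest p against nontargeting, and some of these are not reported here. Other sample values were added where 1 array stood apart, after they were seen. Deviations of same-numbered samples, which share a dye, correlated at 0.134 to 0.257 in knockdown and nontargeting and at 0.164 to 0.265 in knockdown and not transduced. The numbers were therefore taken as pairs in an alternative fit, the replicate block. The main fit held no replicate term, so its tests are not paired. With the dye removed the lowest correlations were 0.122 and 0.0756. Alternatives covered background correction, scaling, filters, blocks, thresholds and leaving out samples or arrays.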

Additional observations from a re-analysis of the deposited data

Results flagged for a closer look

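Of 146 sets of 4 samples (a member in a group), 9 held a sample that stood apart by Dixon's ratio of its gap to the range, above the 95% critical value; chance alone gives about 1 in 20. The ratio was 0.872 for Tcf19 in knockdown replicate 3 (12.94, next 12.62), 0.863 for Tk1 in knockdown replicate 3 and 0.83 for Gins4 in knockdown replicate 1. It was 0.906 for Cdc6 in nontargeting replicate 1, 0.89 for Rpa1 in nontargeting replicate 2 and 0.848 for Rfc2 in nontargeting replicate 3. It was 0.872 for Tyms in not transduced replicate 3, 0.856 for Rfc4 in not transduced replicate 4 and 0.852 for Rrm2 in overexpression replicate 2.

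The knockdown difference within its slide exceeded the overexpression difference within the other slide for 15 members in limma, of which Tcf19 and Timeless were kept with arrays scaled to equal medians. The differences of differences were 2.72 for Tcf19 (adjusted p = 5.18e-06), 1.94 for Cdt1 (5.95e-05), 1.85 for Timeless (7.08e-05), 1.26 for Pole (0.000125) and 1.21 for Cdc45 (7.86e-05). They were 1.14 for Rpa2 (adjusted p = 0.00421), 1.12 for Tk1 (0.00337), 1.1 for Chaf1b (0.000888), 1.08 for Pold1 (0.00201) and 1.04 for Rrm2 (0.0439). They were 1.03 for Gins2 (adjusted p = 0.00247), 0.92 for Tyms (0.012), 0.88 for Dut (0.0476), 0.75 for Orc1 (0.00677) and 0.72 for Chaf1a (0.015). The 2 sides also differ in control, since the overexpression side has no control virus.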

How the results depend on the processing

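Calls among the 38 members numbered 22 against nontargeting, 21 against not transduced, 0 with overexpression, 14 for nontargeting against not transduced and 15 for the difference of differences. Scaling to equal medians gave 11, 11, 0, 3 and 2, and turned Rpa2 against not transduced to -0.03; the cause was not tested. Averaging the samples of an array, which leaves fewer values, gave 13 against not transduced and 7 for nontargeting against not transduced; without the knockdown array of replicates 1 and 2 the former was 13. For nontargeting against not transduced, 9 of the calls were left when only its groups were fitted, with the series matrix and at a threshold of 0.01; without the not transduced array of replicates 3 and 4 the count was also 9, of which 8 were calls of the full fit and 1 was gained (Rpa2). Without the overexpression array of replicates 1 and 2 there was 1 call with overexpression (Pola1), and without the array block the difference of differences had 25. Leaving out 1 sample gave 21 to 23, 17 to 24, 0 to 0, 11 to 16 and 13 to 16 calls, in the order of the first sentence. With the replicate block the counts were 23, 22, 0, 16 and 17, and no call was lost; beside Rpa1 and Rfc5, the block gained Tcf19 (-0.43, adjusted p = 0.0457) and Rfc5 (0.36, adjusted p = 0.0233) for nontargeting against not transduced, and Rfc3 as lower (-0.73, adjusted p = 0.0205) and Gins4 (0.64, adjusted p = 0.047) for the difference of differences, where not every same-numbered pair correlated above 0.1. In every alternative run that could test the gene, 9 of 22, 10 of 21, 3 of 14 and 2 of 15 calls were kept. Not every gene could be tested in every run: Gins2 against nontargeting was kept in 37 of 37 runs, where 39 were made. The run with probes well above background in all 16 samples tested 28 members, so it leaves out dim ones. Over all genes, calls against nontargeting moved from 4923 to 3117 with median scaling, 3093 with array means, 8293 without the array block, 2884 and 3110 without a knockdown array, and 2774 at 0.01. Against not transduced they moved from 2312 to 3962, 945, 5952, 1019 and 1121, and 945, and to 3554 without the nontargeting array of replicates 3 and 4. Orc1, Gins2, Pole2, Tk1 and Cdc6 lie close to background in the controls, which limits their fold changes.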
